A study of Ictalurus punctatus with 14 samples.

Results

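Channel catfish (*Ictalurus punctatus*) carried a small group of genes that were read in the embryo at 2 days post fertilization (dpf) and lay near 0 on each later day sampled. Members of the group had at least 5 CPM (the count of a gene divided by the total of its library, times 1000000) in both libraries of 2 dpf, and a stage mean of at most 1 CPM on each day sampled from 5 to 10 dpf. This rule gave 10 genes out of 23231 in the count table, or 0.0773% of the 12930 genes that reached 5 CPM in both libraries of 2 dpf. The 10 genes were si:ch211-57n23.4, urahb, lin28ab, lin28aa, LOC108258592, LOC108268478, zgc:114123, abcb11a, LOC108265824 and LOC108261361. These genes were chosen by their CPM at 2 dpf and at the later stages, so the difference between those stages is described below without a test, and results of tests are read only for genes outside the group.

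RNA was sequenced from whole fish of the Kansas strain, of unknown sex, at 2 dpf and then daily from 5 to 10 dpf, with 2 replicate pools of several fish at each of the 7 stages and 14 libraries in all. The stages were compared by age, eggs were incubated in a hatching trough, and fry were fed a starter diet from 7 dpf onwards, so feeding and age cannot be told apart from that day. Each pool mixed fish and tissues, so fewer cells of a type and less RNA per cell cannot be told apart. Total counts lay between 4349807 and 16097718 per library, and 3 counts, the floor used here, were worth 0.186 to 0.69 CPM. Intervals and floors below cover counting error only, as the reads carry no molecular identifiers and copies made by PCR are not independent. Among marker lists outside the group, 19 of 19 tested larval muscle genes, 21 of 24 neuronal genes and 6 of 21 liver and pancreas genes were higher at 5 than at 2 dpf, and 0, 1 and 3 were lower (edgeR quasi-likelihood test, adjusted p under 0.05 and at least a 1 log2 unit change, which 21.3% of all 20329 tested genes passed upward and 11.9% downward).

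Early vertebrate embryos hold RNAs for regulators that keep cells undifferentiated, and these RNAs are replaced as tissues form. Lin28 is one of the best known of these regulators. It was found in *Caenorhabditis elegans* as a gene that sets the timing of development, and its protein binds precursors of the let-7 microRNAs and blocks their maturation. The libraries were made from RNA depleted of ribosomal RNA, so reads were not limited to polyadenylated RNA.

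The lin28 genes were the members with the clearest known role. In lin28ab the libraries of 2 dpf held 372 and 440 counts, or 34.7 and 40.3 CPM, and the 12 larval libraries held between 1 and 9 counts each, with a median of 0.471 CPM. The highest larval value, 1.13 CPM in replicate 2 of 10 dpf, stood beside 0.288 CPM in replicate 1 of the same day. Summed over libraries, the level of lin28ab at 2 dpf was 75-fold that of the larval stages (95% exact interval 56.2 to 102), and no larval library came near either embryo library.

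In lin28aa the counts at 2 dpf were 152 and 178, or 14.2 and 16.3 CPM. There were 4 and 4 counts at 5 dpf, 5 and 3 at 6 dpf, none in either library of 7 dpf, and at most 2 in any library from 8 to 10 dpf. The few larval reads of lin28aa thus lay mainly in the first larval days, with 16 of its 20 larval counts at 5 and 6 dpf. The 2 dpf level of lin28aa was 19.5-fold that at 5 dpf (interval 9.8 to 45.6), 37.4-fold that at 6 dpf (18.7 to 87.3), and at least 65.5-fold that at 7 dpf, taking 3 counts over the stage as the floor.

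The third gene of the family in the annotation, lin28b, did not meet the rule. It had 11.2 and 10.5 CPM at 2 dpf, and its larval stage means lay between 2.16 and 4.53 CPM, so its highest larval mean was 41.9% of its 2 dpf mean. For comparison, the same share was 0.8 of 15.3 CPM in lin28aa and 0.716 of 37.5 CPM in lin28ab. From 2 to 5 dpf, lin28b fell by 1.45 on the log2 scale (SE 0.39, adjusted p = 0.00808, edgeR).

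Genes that act with Lin28 or let-7 in other vertebrates were read at every larval stage. These related genes were picked after the members were known, and their values are given without a test. The gene of the RNA-binding ubiquitin ligase trim71, a let-7 target in mouse and worm, had a mean of 151 CPM at 2 dpf and larval means of 15.6 to 38.8 CPM. The mRNA-binding proteins igf2bp1 and igf2bp3 went from 494 and 75.5 CPM to larval ranges of 119 to 215 and 38.8 to 58.6 CPM. Their paralog igf2bp2b lay higher in the larvae (33 to 56.7 CPM) than in the embryo (21.9 CPM), so the family did not move as a block. The chromatin protein hmga2 and the transcription factor mycn, both let-7 targets in mammals, had 41.8 and 74.3 CPM at 2 dpf and larval means of 18 to 33.9 and 28.5 to 46.3 CPM. The microRNA processing enzymes dicer1 and drosha had 91.6 and 26.2 CPM at 2 dpf and larval ranges of 49.2 to 132 and 11.5 to 30.1 CPM, which lay on both sides of the embryo level. So did that of tut4, a uridylyltransferase that Lin28 recruits to let-7 precursors in mammals, with 49.7 CPM at 2 dpf and 40.7 to 75.6 CPM in the larvae. Means of drosha were 11.5, 14.9 and 17.3 CPM at 5, 7 and 9 dpf. They were 30.1, 18.2 and 29.2 CPM at 6, 8 and 10 dpf. In tut4 they were 40.7, 42.9 and 49.6 CPM against 66.3, 57.2 and 75.6 CPM. In dicer1 the means of these days overlapped, with 71.4 CPM at 8 dpf and 76.6 CPM at 9 dpf. Single libraries overlapped in the other genes too. For drosha, replicate 1 of 9 dpf had 21.9 CPM, above the 15.9 and 20.4 CPM of 8 dpf. For tut4 it had 54.6 CPM, above the 52.2 CPM in replicate 1 of 8 dpf. Mapping rates were reported to differ between 5, 7 and 9 dpf and 6, 8 and 10 dpf, and their part was not tested. Levels are per library and not per length, so they compare stages of 1 gene and not genes with each other.

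**Figure D1:**
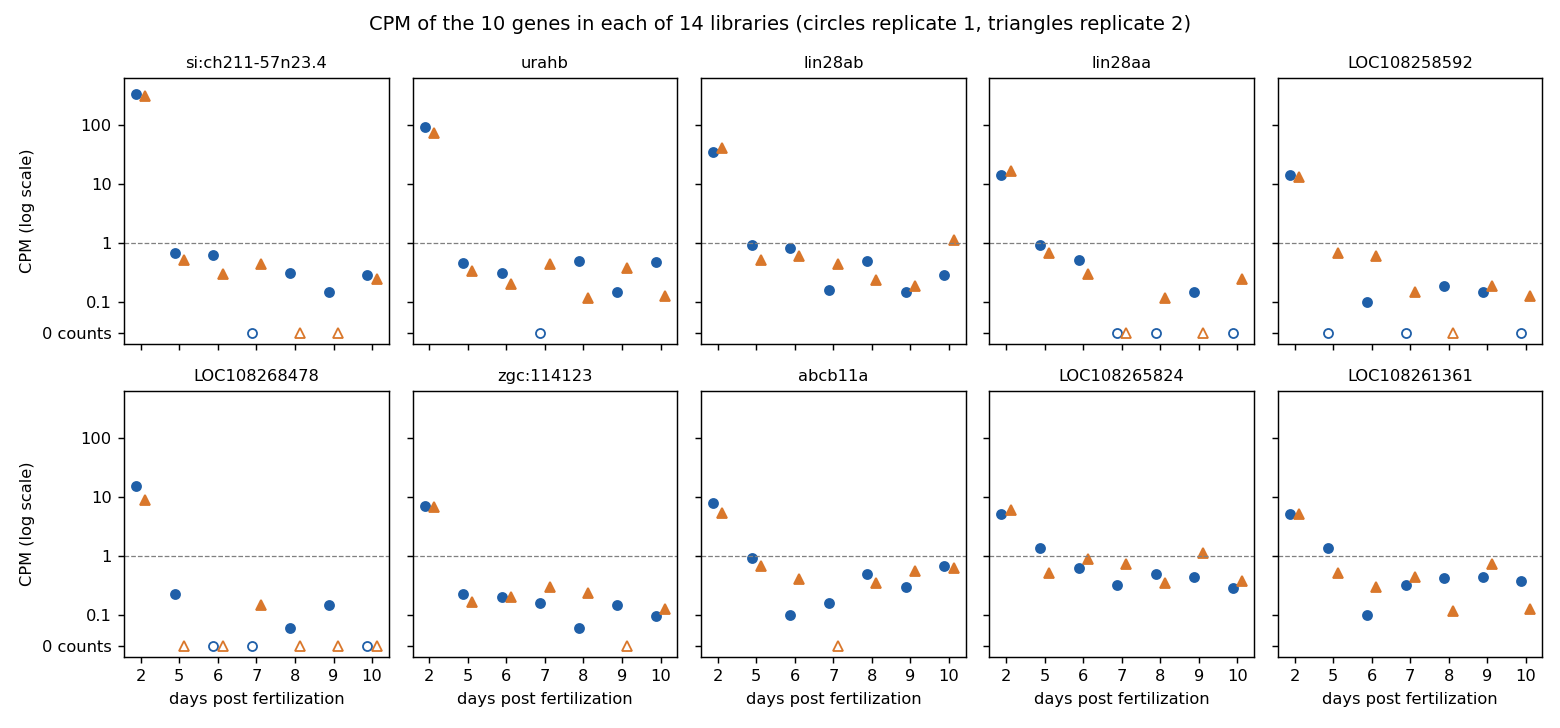
CPM of each of the 10 genes (log scale) in each of the 14 libraries against days post fertilization, with circles for replicate 1, triangles for replicate 2 and open symbols for a count of 0. The dashed line marks 1 CPM, the larval limit of the rule: both embryo libraries sit at 5.04 CPM or more in each gene, and single larval libraries reach up to 1.38 CPM.

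The gene urahb encodes 5-hydroxyisourate hydrolase, the enzyme that acts after urate oxidase in the breakdown of urate to allantoin. Its libraries of 2 dpf held 959 and 772 counts, or 89.6 and 70.8 CPM (80.2 ± 13.3, SD, n = 2). The larval libraries held 0 to 8 counts, 30 in all, with stage means between 0.222 and 0.4 CPM. The 2 dpf level was 261-fold the larval level (interval 182 to 388), the third highest of the 10 genes after si:ch211-57n23.4 and LOC108268478.

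Other genes of urate breakdown had a different time course. The paralog uraha was at 1.12 and 1.56 CPM at 2 dpf and at stage means of 2.81 to 4.19 CPM in the larvae. Urate oxidase (uox), the enzyme before urahb in the pathway, had 1.03 and 0.0917 CPM at 2 dpf, a mean of 24 CPM at 5 dpf and 63.5 CPM at 10 dpf. Thus urahb was read on the day when uox was lowest, and the reverse held from 5 dpf onwards. Allantoicase (allc), which acts on allantoate later in the same pathway, had a mean of 2.73 CPM at 2 dpf and larval means of 5.41 to 9.91 CPM. The gene urad, whose product acts directly after that of urahb, had 3.51 CPM at 2 dpf and larval means on both sides of it, from 1.86 to 5.69 CPM. Xanthine dehydrogenase (xdh), which makes urate, had 11.6 CPM at 2 dpf, 5.93 CPM at 5 dpf and 49.3 CPM at 10 dpf.

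The gene abcb11a belongs to the family of the bile salt export pump, the transporter that moves bile salts out of liver cells. It had 83 and 59 counts at 2 dpf, or 7.75 and 5.41 CPM, and 42 counts in the 12 larval libraries together. Larval counts ranged from 0 in replicate 2 of 7 dpf to 8 in replicate 1 of 8 dpf. The 2 dpf level was 15.3-fold the larval level (interval 10.8 to 22.1), with stage means of 0.8 ± 0.17 CPM at 5 dpf, 0.0818 ± 0.116 CPM at 7 dpf and 0.651 ± 0.0303 CPM at 10 dpf (SD, n = 2 each).

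Its paralog abcb11b was lower at 2 dpf than at any larval stage, the reverse of abcb11a. It was at 0.934 and 0.458 CPM at 2 dpf, and its mean was 5.79 CPM at 5 dpf, 5.67 CPM at 7 dpf and 24.3 CPM at 9 dpf, and 12.8, 13.9 and 39.2 CPM at 6, 8 and 10 dpf. Among the larval stages, both paralogs had their lowest mean at 7 dpf. For abcb11b, however, the libraries of 7 dpf (5.56 and 5.78 CPM) overlapped those of 5 dpf (5.29 and 6.29 CPM). For abcb11a the mean at 7 dpf rested on 1 count. The levels of abcb11b at 10 dpf, 35.1 and 43.4 CPM, did not overlap those of any earlier day. The span of abcb11a overlaps that of LOC108266940, which had no count at 2 dpf. The strand setting of the counting is not given in the sources used here, so reads of overlapping genes cannot be told apart. How reads shared by the paralogs were counted is not stated in the sources used here, so each value of such a pair is uncertain to that extent.

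**Figure D2:**
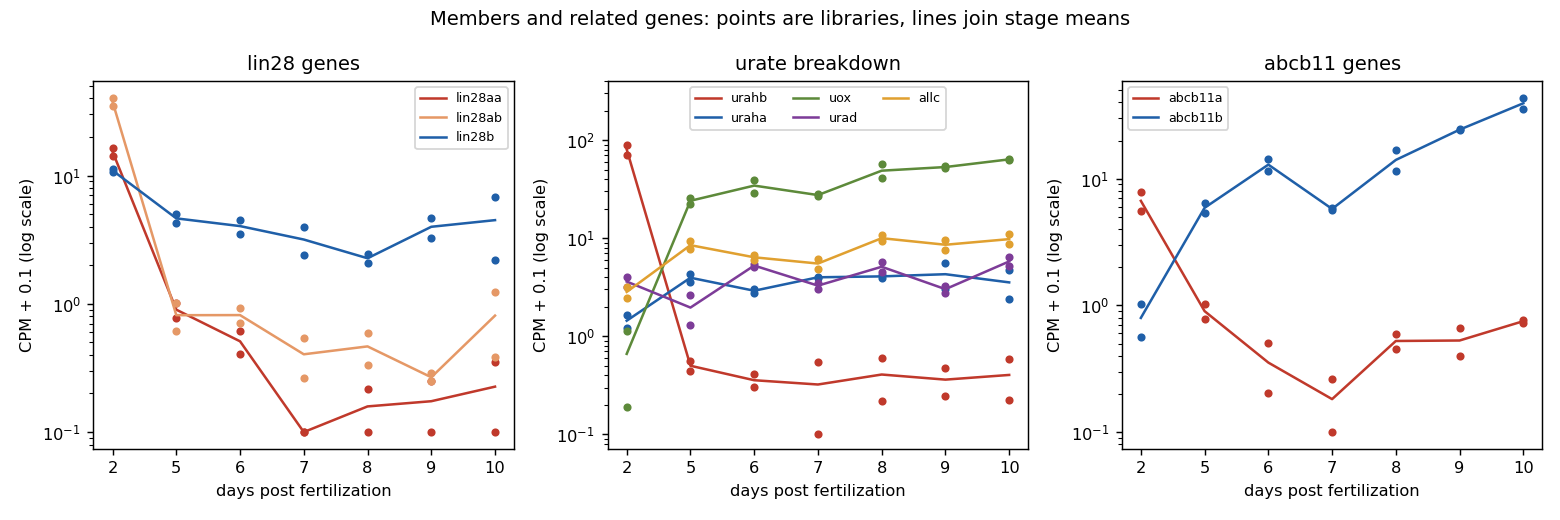
CPM plus 0.1 (log scale) against days post fertilization for the lin28 genes, genes of urate breakdown and the abcb11 genes, with points for single libraries and lines through the stage means. The members lin28aa, lin28ab, urahb and abcb11a lie lower from 5 dpf onwards than at 2 dpf, while uox and abcb11b lie at or below 1.03 CPM in both embryo libraries and at or above 5.29 CPM in all 12 larval libraries.

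The member with the most reads in the embryo libraries, a measure that also depends on gene length, was si:ch211-57n23.4, a protein-coding gene named after a zebrafish clone, for which the sources used here give no role. It had 3451 and 3373 counts at 2 dpf, or 322 and 309 CPM, and its replicates differed by 1.04-fold. The 12 larval libraries held 29 counts together, at most 6 in 1 library and none in 3 of them. The 2 dpf level was 1065-fold the larval level (interval 741 to 1591), and it made up the larger part of the 515 and 482 CPM that the 10 genes reached together at 2 dpf.

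LOC108268478 came closest to no larval reads at all. It had 164 and 95 counts at 2 dpf, or 15.3 and 8.71 CPM, and 4 counts over all 12 larval libraries, 1 each at 5, 7, 8 and 9 dpf. Its level at 2 dpf was 293-fold the larval level (interval 113 to 1083), and at least 78.2-fold that at 6 dpf and 73.3-fold that at 10 dpf, where both libraries were at 0. It was also the only member whose embryo replicates differed by 1.5-fold or more, as did those of 1.7% of the 12930 genes read at 2 dpf. Its own gap was 1.76-fold. Each embryo library alone held many times the larval total.

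LOC108258592 had 149 and 144 counts at 2 dpf, or 13.9 and 13.2 CPM, and 18 larval counts. Of these, 10 came from replicate 2 of 5 dpf and replicate 2 of 6 dpf, with 4 and 6 counts, against 0 and 1 in replicate 1 of those days. The other 8 counts lay in 6 libraries, and 4 larval libraries had none. Its 2 dpf level was 73.7-fold the larval level (interval 45.8 to 126). It had the shortest span of the 10 genes in the RefSeq annotation, 889 bp including introns.

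The gene zgc:114123 had 76 and 74 counts at 2 dpf, or 7.1 and 6.79 CPM, and no more than 2 counts in any larval library. Its larval stage means ran from 0.074 to 0.23 CPM with no day apart from the others, and its 2 dpf level was 45.2-fold the larval level (interval 26.6 to 82.9). Its name gives no role.

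The remaining members lay just inside both limits of the rule. LOC108265824 had 54 and 65 counts at 2 dpf, or 5.04 and 5.96 CPM, and 57 larval counts, from 2 to 9 in each of the 12 libraries. Its fold of 9.45 (interval 6.83 to 13.2) was the lowest of the group, and it had no larval library at 0. LOC108261361 had 56 and 57 counts at 2 dpf, 5.23 CPM in each library, and 38 larval counts, with a fold of 13.5 (interval 9.24 to 20). For these last genes the highest larval stage mean was 0.945 CPM, at 5 dpf.

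On the other side of the limits, nanog, a homeobox gene of undifferentiated embryo cells, had 5.32 and 4.86 CPM at 2 dpf and no larval stage mean above 0.596 CPM. The hindbrain patterning gene hoxb1a had 4.86 and 8.16 CPM, with a highest larval mean of 0.999 CPM. Both missed the embryo limit of 5 CPM by 1 library. Just beyond the larval limit lay LOC108269944, with 10.4 and 7.06 CPM at 2 dpf and a highest larval mean of 1.25 CPM, and ccndx, with 5.88 and 6.33 CPM and a highest larval mean of 1.3 CPM. The limits thus cut through a continuous range of values.

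Summed over the 10 genes, the level was 499 ± 23.4 CPM at 2 dpf (SD, n = 2), or 0.0515% and 0.0482% of all counts in its libraries. It was 5.86 ± 1.8 CPM at 5 dpf, 3.62 ± 0.303 at 6 dpf and 2.13 ± 1.39 at 7 dpf. From 8 to 10 dpf it stood at 2.28 ± 1.08, 2.7 ± 0.675 and 2.82 ± 0.46 CPM. The libraries of 5 dpf (7.13 and 4.59 CPM) and 6 dpf (3.41 and 3.84 CPM) lay above the 8 later libraries, which ranged from 1.15 to 3.18 CPM, and the later stages overlapped each other. With each library thinned to the smallest total in 1 random draw, 6 dpf no longer stood apart. Its 13 and 20 counts overlapped the 4 to 17 counts of the later libraries and the 31 and 18 counts of 5 dpf. Thinning also adds counting noise, so the draw does not show what part depth had in this order.

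The larval reads were few but seldom absent. Of 120 larval values (10 genes in 12 libraries), 23 were 0, 67 were below the floor of 3 counts, and the highest was 9 counts. No member was without a read in all larval libraries, so the data show low levels and not the absence of RNA. The rule held stage means at or below 1 CPM, and single larval libraries reached up to 1.38 CPM. Both embryo libraries lay above all 12 larval libraries in 10 of 10 members. Of all 20329 tested genes, 17.4% showed the same order. The rule used this contrast, so nothing is read from the count.

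Values of other genes of the embryo are set beside those of the members as a description. The limits of the rule hold the larval share of each member low, so nothing is read from the gap. The highest larval stage mean was 0.19% to 18.1% of the 2 dpf mean in the members, with a median of 2.96%. Over the 12930 genes that reached 5 CPM in both embryo libraries the median of this share was 119%. A share under 10% was found in 28 of these genes (0.217%), 7 of them members. The other members were abcb11a, LOC108265824 and LOC108261361, which had the lowest embryo means, 5.23 to 6.58 CPM.

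**Figure D3:**
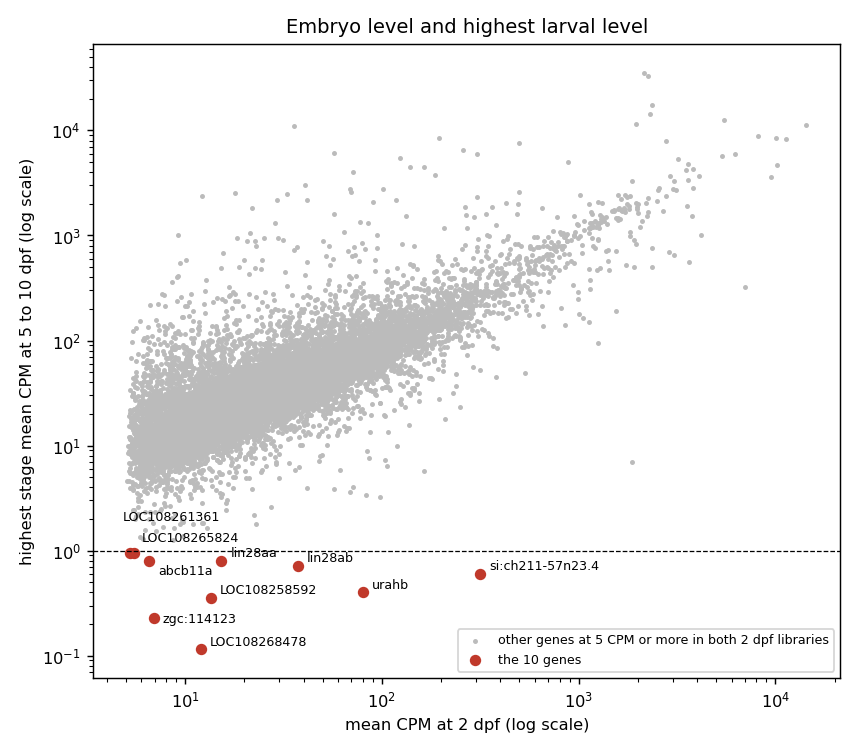
Highest larval stage mean against mean at 2 dpf, both in CPM on log scales, for the genes with 5 CPM or more in both embryo libraries (grey) and the 10 members (red). The members lie below the dashed line at 1 CPM, with si:ch211-57n23.4 far to the right at 316 CPM and the others between 5.23 and 80.2 CPM.

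The remaining larval reads were also described from 5 to 10 dpf. All 10 members passed the filter on low counts only through their level at 2 dpf, and the rule held their larval stage means at or below 1 CPM. The number of members past a threshold in these comparisons is therefore set largely by the choice of members and by their few counts. Nothing is read from it. Nor is anything read from how many members lie below 0 or from their median, as members are not replicates of a stage. The estimates and their SE are given as a description. Changes were compared between 9 and 5 dpf and between 10 and 6 dpf, since libraries of 5, 7 and 9 dpf were reported with other mapping rates than those of 6, 8 and 10 dpf, and as a slope per day over the 6 larval stages.

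From 5 to 9 dpf the estimate was below 0 in 10 of 10 members, with a median of -1.02 on the log2 scale, beside 0.02 over all genes, 49.1% of which were below 0. In lin28aa, with 4 and 4 counts at 5 dpf and 1 and 0 counts at 9 dpf, the estimate was -3.06 (SE 1.15). It was -2.65 (SE 1.27) in si:ch211-57n23.4 and -1.98 (SE 0.94) in lin28ab. These values rest on fewer than 10 counts per gene and stage. Without replicate 1 of 5 dpf, the smallest library, 7 of 10 estimates were below 0. Of all genes, 14.9% were called in edgeR (4.33% lower and 10.5% higher at 9 dpf), and of the members 0, with 1 at an unadjusted p under 0.05.

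From 6 to 10 dpf the estimates were mixed. They were below 0 in 6 members and above 0 in 3, and LOC108268478 had no count at either stage. The median was -0.49, beside -0.03 over all genes. The lowest estimate was -2.47 in LOC108258592 (SE 1.36) and the highest 1.24 in abcb11a (SE 0.69), which went from 1 and 4 counts at 6 dpf to 7 and 5 counts at 10 dpf. Of all genes, 13% were called in edgeR (4.85% lower and 8.2% higher at 10 dpf), and of the members 0, with none at an unadjusted p under 0.05.

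**Figure D4:**
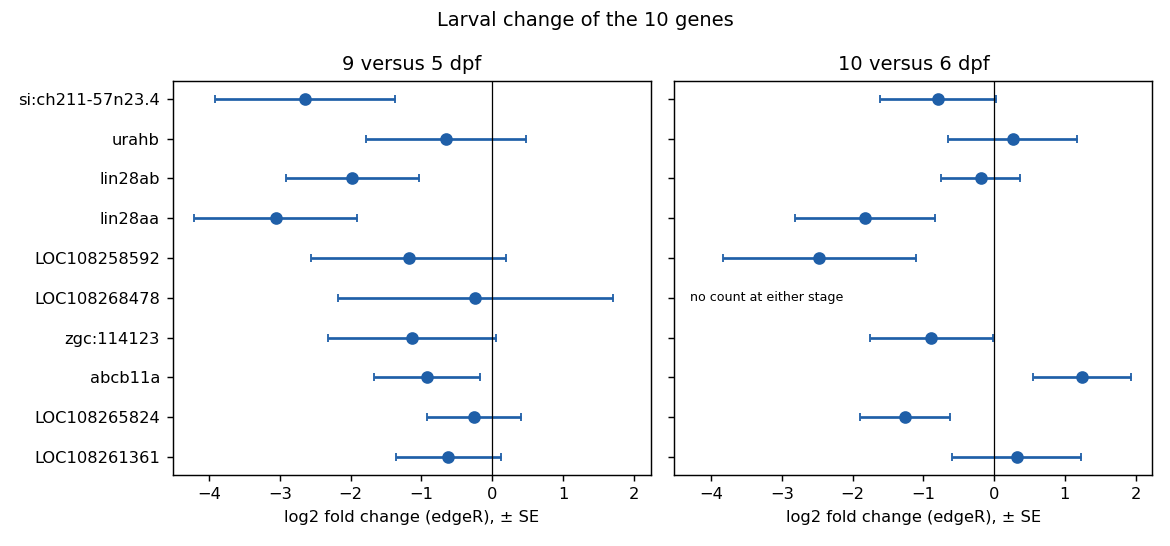
Log2 fold change with its SE (edgeR) of each of the 10 genes from 5 to 9 dpf (left) and from 6 to 10 dpf (right). The 10 estimates on the left lie below 0, from -3.06 in lin28aa to -0.24 in LOC108268478, and the 9 on the right lie on both sides of 0, from -2.47 to 1.24.

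As a slope over 5 to 10 dpf, 9 of 10 members had an estimate below 0, with a median of -0.22 log2 units per day, beside 0.00 over all genes. The slope of si:ch211-57n23.4 was -0.37 per day (SE 0.17). A slope of stage means had no usable SE in lin28aa and LOC108268478, which had stages with no count. In a model with the day as a linear covariate, added after the data were seen, the estimates were -0.78 per day for lin28aa (SE 0.22), which rests on 20 larval counts, and -0.17 for LOC108268478 (SE 0.32). Of all genes, 52.7% were called in either direction with the slope of stage means (26.7% downward and 26% upward), and of the other 8 members 0, with none at an unadjusted p under 0.05.

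The day of the highest larval level was 5 dpf in 7 members, 6 dpf in lin28ab and LOC108258592, and 7 dpf in zgc:114123. In the genes named, this day hardly stood apart. Means of lin28ab were 0.715, 0.716 and 0.71 CPM at 5, 6 and 10 dpf. Those of LOC108258592 were 0.34 and 0.355 CPM at 5 and 6 dpf, and those of zgc:114123 were 0.2, 0.204 and 0.23 CPM at 5, 6 and 7 dpf. Among all genes read at 2 dpf, 38% had their highest larval mean at 5 dpf. The libraries of 5 dpf were among the smallest, with totals of 4349807 and 5885954 counts, where 1 count weighs most in CPM, and the part of depth in this order was not tested.

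The pluripotency and endoderm list was the 1 list of 18 compiled for embryo and larval tissues that held members, lin28aa and lin28ab. The lists were chosen with earlier results of these data known. Of its 21 tested genes outside the group, 12 were lower at 5 than at 2 dpf and 3 were higher (edgeR, adjusted p under 0.05 and at least 1 log2 unit), where 11.9% and 21.3% of all genes were. With library totals the counts were 11 and 4. The median change of these genes was -1.24, beside 0.02 over all genes.

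The genes of this list differed in the level they kept in the larvae. The zinc finger gene sall4 fell by 3.95 on the log2 scale (SE 0.25, adjusted p = 2.13e-07, edgeR), from 119 CPM at 2 dpf to larval means of 5.53 to 9.9 CPM. The endoderm factor gata6 fell by 3.72 (SE 0.34, adjusted p = 3.55e-06, edgeR), from 74.5 CPM at 2 dpf to 6.47 CPM at 5 dpf. Its later means went up and down, with 4.68 and 14.1 CPM at 7 and 9 dpf and 23, 13 and 23.8 CPM at 6, 8 and 10 dpf. By contrast pou5f3, a POU factor that starts zygotic transcription in zebrafish, was at 3.01 CPM at 2 dpf and at most 0.32 CPM in the larvae, and nanog fell by 3.87 (SE 0.51, adjusted p = 5.16e-05, edgeR). The neural and stem cell gene sox2 rose by 1.05 (SE 0.16, adjusted p = 0.00014, edgeR), from 11.9 CPM at 2 dpf to 28.6 CPM at 5 dpf. Its later means were lower, with 18.7 and 23.9 CPM at 7 and 9 dpf and 14.4, 13.9 and 19.6 CPM at 6, 8 and 10 dpf. Libraries of 5, 7 and 9 dpf were reported with other mapping rates than those of 6, 8 and 10 dpf. The part of this in the comparisons of 5 with 2 dpf, for single genes and for lists, was not tested.

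Over the 18 lists, 366 tested genes outside the group held 104 that were lower and 77 that were higher at 5 dpf, with a median change of -0.24. With library totals in place of TMM, an alternative added after the data were seen, the median of all genes moved from 0.02 to 0.23 and the split turned to 79 lower and 88 higher. These totals include the larval muscle, neuron, and liver and pancreas lists, which stand for other tissues. They held 19, 21 and 6 higher genes and 0, 1 and 3 lower. With library totals they held 19, 21 and 7 higher genes and 0, 1 and 1 lower. The lists without a member did not share a direction. Of 39 tested cell division genes, 24 were lower and none was higher (19 and 1 with library totals), and of 16 embryonic erythroid genes, 8 were lower and none was higher (8 and 0). In the germ line and oocyte list, 8 of 15 tested genes were lower and 1 was higher (7 and 1). Left-right and cilia had 5 lower and 0 higher of 11 (4 and 1), and hatching gland 3 and 0 of 8 (3 and 0). The yolk list had 7 and 3 of 18 (6 and 5), and Nodal, BMP and organizer 4 and 2 of 16 (4 and 4). Embryonic epidermis had 4 and 2 of 17 (2 and 2), and pronephros and mesoderm 5 and 3 of 21 (3 and 3). The placode and neural crest list had 1 lower and 4 higher of 34 (1 and 5 with library totals). Myogenic commitment had 3 and 4 of 18 (2 and 6), and somite segmentation 5 and 3 of 23 (3 and 4). Neural plate and neural tube patterning had 15 lower and 6 higher of 63 genes (8 and 6 with library totals). Over all genes 11.9% were lower and 21.3% higher, or 8.1% and 24.7% with library totals. With the embryo limit lowered to 2 CPM, the rule took 38 more genes. From the germ line and oocyte list came nanos3, syce3 and buc, at 3.38, 3.19 and 2.13 CPM at 2 dpf. Their larval stage means were at most 0.255 CPM. Other lists gave gdf3, ccna1, btg4, hoxb1a, her3, nanog and pou5f3.

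In RefSeq's annotation of assembly Coco_2.0, used for names, spans and neighbours, all 10 members were protein coding, as were 99.9% of matched genes read at 2 dpf. They lay on 8 chromosomes, and none was next to another. Their spans had a median of 14664 bp (889 to 49183), beside 12911 bp in protein-coding genes read at 2 dpf. Of 37 counted genes within 2 places of a member, 23 reached 5 CPM in both embryo libraries. Of these, 6 had their highest stage mean at 2 dpf (26.1%, beside 35% of all such genes), and the lowest larval mean among the 23 was 5.52 CPM. Of all genes read at 2 dpf, 0.217% had a highest larval mean under 10% of their 2 dpf mean. Neighbours read in the embryo thus stayed read in the larvae, like most such genes. For example, lin28ab lies between pdik1l, with 8 CPM at 2 dpf and a larval mean of 10.6 CPM, and maneal, with 5.27 and 9.41 CPM.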

How the data were processed

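The authors isolated RNA from whole embryos or larvae, depleted ribosomal RNA, trimmed reads with Trimmomatic 0.36, mapped them with STAR 2.7.0 and deposited the counts that HTSeq assigned to exons of each gene, without normalization. The genome build, annotation and strand setting are not given in the sources used here. Here, 7 lines of 3 shared identifiers were summed, which left 23231 genes, of which 21834 were matched to RefSeq (Coco_2.0). No exon lengths and no sequences were used.

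Members and lists were chosen with earlier results of these data known. A gene that the rule sets aside is not reported here. Members, genes next to the limits and genes of the lists were named. All 14 libraries were fitted with edgeR 4.0.16 (TMM, its low-count filter, a mean per stage, R 4.3.3), and p-values were adjusted by Benjamini-Hochberg over 20329 genes. Calls needed an adjusted p under 0.05 and, between stages, a log2 fold change of 1 or more in size. SE is the log2 change over the square root of F. With a library left out, the lone library of its stage is assumed to vary like the others. The slope test was tried on simulated data, with slopes planted only in genes with more counts than the members had in larvae. Slopes at counts as low as those of the members were not tried. Alternatives were DESeq2 1.42.0, other size factors, no filter, a replicate block and each library left out. Intervals were exact (95%). Nothing says that pools came from separate spawns, so p-values measure the spread between pools.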

Additional observations from a re-analysis of the deposited data

How the results depend on the processing

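The number of members moved with the limits: 48 genes passed with an embryo minimum of 2 CPM, 5 with 10 CPM, 4 with a larval maximum of 0.5 CPM and 28 with 2 CPM. It was 12 on TMM-normalized CPM, 7 with the larval limit applied to each library, and 8 to 13 with 1 library left out. Counts of called members are given without a reading, since the choice of members limits them. In the slope they numbered 1 (lin28aa) under DESeq2 and under the linear day covariate, which was added after seeing the data. Of all 20329 genes, these fits called 9757 and 7893. With 1 library left out, called members ranged from 0 to 1 for the slope (si:ch211-57n23.4 without replicate 1 of 8 dpf), 0 to 1 from 5 to 9 dpf (lin28aa without either replicate of 10 dpf) and 0 to 0 from 6 to 10 dpf. Genes called over the whole table ranged from 7872 to 12522 for the slope (10709 with all libraries), 1677 to 3988 from 5 to 9 dpf (3021) and 1561 to 4849 from 6 to 10 dpf (2651), and list genes from 88 to 104 lower and 73 to 77 higher. The largest moves came without either replicate of 5 dpf (1852 and 1677), without replicate 1 of 9 dpf (1705), without either replicate of 6 dpf (1569 and 1561) and without replicate 1 of 10 dpf (4849).

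Direction turned for some members with 1 library left out, none of them called: urahb ranged from -0.23 to 0.08 per day and from -1.08 to 0.95 between 6 and 10 dpf, LOC108258592 from -0.75 to 0.25 per day and from -1.98 to 3.61 between 5 and 9 dpf, and LOC108268478 from -2.94 to 2.73 between 5 and 9 dpf. Between 5 and 9 dpf LOC108265824 ranged from -1.03 to 0.52 and LOC108261361 from -1.23 to 0.16. Between 6 and 10 dpf LOC108261361 ranged from -0.78 to 1.27 and lin28ab from -1.19 to 0.49. The causes were not tested.

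Same-numbered libraries came from different fish, and their deviations from the stage means correlated at 0.0047 for 5 and 9 dpf, 0.0573 for 6 and 10 dpf, and -0.585 to 0.268 over the 21 pairs of stages. With a replicate block, 10244 genes were called for the slope, 2885 from 5 to 9 dpf and 2519 from 6 to 10 dpf, and no member. RLE size factors, library totals and no filter changed no member's call. A fit of the 12 larval libraries alone called 10237 genes for the slope but gave no value for the members, because none passed its filter. Larval values below the floor numbered 67 of 120, and 94 with libraries thinned to the smallest total in 1 random draw. The floor of 0.186 to 0.69 CPM lay close to the larval limit of 1 CPM, so small larval changes were not detectable at this depth.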
